A study of Mus musculus with 6 samples.

Results

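*Izumo1*, *Spaca1*, *Acr*, *Acrbp*, *Zpbp*, *Zpbp2*, *Spam1*, *Hyal5*, *Hyal6* and *Zp3r* are 10 acrosome and zona-interaction genes among the 11601 genes measured in mouse testis. They were taken by their symbols in the array annotation and carry 19 of the 45281 probes. A probe was kept where its detection p, the test of its signal against negative-control beads, was under 0.05 in at least 2 of the 5 mice. Of the 19 probes 18 were kept, among 20554 kept in all, and each of the 10 genes held at least 1 of them. The probe left out, ILMN_1239790 of *Spaca1*, was not detected in any mouse.

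JQ1 is a small molecule that displaces the BET family of bromodomain proteins, among them the testis-specific BRDT, from acetylated histones. The arrays addressed which testis transcripts change in males given this compound. The JQ1-treated group comprised 3 males of strain C57/129 that received a daily dose of 50 mg/kg between 6 and 12 weeks of age, over 6 weeks, and the control group comprised 2 males of the same strain and ages that received vehicle each day. Control mouse 1 was measured on 2 arrays, whose normalized values were averaged, and every other mouse on 1. Total RNA came from testis tissue that was not divided into cell types, so each signal sums over germ cells and somatic cells. Fewer cells of a type and less RNA per cell therefore cannot be told apart here. The median raw signal lay between 101.8 and 142.2 per array and 17799 to 20326 probes were detected per array. The 2 arrays of control mouse 1 differed across kept probes with an SD of 0.27 on the log2 scale, and the 2 control mice with an SD of 0.32.

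The acrosome is a secretory vesicle that forms from the Golgi in round spermatids and comes to cap the sperm nucleus. At fertilization it fuses with the overlying plasma membrane and releases hydrolases and matrix proteins, which act on the zona pellucida, the glycoprotein coat of the egg, and its inner membrane then carries the proteins that meet the egg. Acrosin and its binding protein, the zona-binding proteins and ZP3R belong to the matrix, the hyaluronidases open the hyaluronan-rich cumulus around the egg, and SPACA1 and IZUMO1 are membrane proteins of the acrosome. Most of these genes are transcribed in late spermatocytes and spermatids.

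*Hyal6*, *Spam1* and *Hyal5* lie on chromosome 6 in this order in the RefSeq annotation of GRCm38.p6, with *Hyal4* between *Hyal6* and *Spam1*. Their upstream sequences are shown because the 3 neighbours belong to 1 gene family and *Hyal6* had a larger estimated change than *Spam1* and *Hyal5*. The changes of *Spam1* and *Hyal5* were alike, both 1.65-fold lower. The upstream sequence of *Izumo1* is shown because its change did not pass the test. Each is the 250 bases before a RefSeq transcription start on the plus strand of GRCm38.p6, at chr6:24732995-24733244 for *Hyal6*, chr6:24790938-24791187 for *Spam1*, chr6:24857747-24857996 for *Hyal5* and chr7:45621561-45621810 for *Izumo1*, and capitals mark matches to forms of the cAMP response element, a motif bound in spermatids by the activator CREM.
Hyal6: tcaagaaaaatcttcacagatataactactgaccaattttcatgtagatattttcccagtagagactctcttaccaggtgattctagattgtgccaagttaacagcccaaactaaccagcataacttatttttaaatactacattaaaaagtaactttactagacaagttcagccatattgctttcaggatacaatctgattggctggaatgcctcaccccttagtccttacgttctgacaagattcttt
Spam1: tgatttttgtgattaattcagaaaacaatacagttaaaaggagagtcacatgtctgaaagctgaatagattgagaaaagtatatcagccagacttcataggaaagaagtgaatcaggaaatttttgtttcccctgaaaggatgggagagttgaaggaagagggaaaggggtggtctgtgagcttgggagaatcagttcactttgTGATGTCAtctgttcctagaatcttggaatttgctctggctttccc
Hyal5: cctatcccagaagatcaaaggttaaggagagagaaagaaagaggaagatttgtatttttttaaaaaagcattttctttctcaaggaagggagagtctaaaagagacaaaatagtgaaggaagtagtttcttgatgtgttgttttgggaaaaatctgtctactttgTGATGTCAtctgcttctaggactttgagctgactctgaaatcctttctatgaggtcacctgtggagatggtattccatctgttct
Izumo1: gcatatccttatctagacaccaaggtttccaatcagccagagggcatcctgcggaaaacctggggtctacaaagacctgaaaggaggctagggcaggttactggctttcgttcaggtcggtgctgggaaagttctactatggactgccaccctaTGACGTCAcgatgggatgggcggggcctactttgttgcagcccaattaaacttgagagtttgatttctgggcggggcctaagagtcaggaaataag
The full element TGACGTCA, which reads the same on both strands, stood 96 to 89 bases before the start of *Izumo1* and upstream of 1.55% of the 32851 promoters of the same length. The form TGATGTCA (TGACATCA on the other strand) stood 46 to 39 bases before the start of *Spam1* and 85 to 78 bases before that of *Hyal5*, and was held by 2.93% of promoters. In both genes it lay within the 18-base run actttgTGATGTCAtctg, the longest stretch that any pair of the 9 genes with a promoter entry shared. The next longest was 11 bases, between *Zpbp* and *Hyal6*. The shorter site TGACGT, searched on both strands and contained in the full element, was found in *Izumo1* and 18 to 13 bases before the start of *Acrbp*, and in 6.47% of promoters. The letters TATAAA, searched on both strands, were in none of the windows of the 9 genes and in 12.4% of all. The windows of 5 of the 9 genes, *Hyal6*, *Spaca1*, *Zp3r*, *Zpbp* and *Zpbp2*, held none of the 4 motifs. Among them, *Spaca1* did not pass the test of its change, like *Izumo1*, whose window held the full element. These matches describe letters only, and no binding was measured.

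The acrosome and zona-interaction genes were lower in JQ1-treated than in control testes at 16 of their 18 kept probes, and 8 of the 10 genes fell. At the kept probe with the highest mean signal of each gene, the change was 2-fold or more for *Hyal6* and *Zpbp2*, between 1.43- and 1.67-fold for *Acr*, *Acrbp*, *Zpbp*, *Spam1*, *Hyal5* and *Zp3r*, and 1.08- and 1.07-fold without passing the test for *Izumo1* and *Spaca1*. The test was limma's, with Benjamini-Hochberg adjustment over all kept probes and a threshold of 0.05 on the adjusted p, and by it 22.8% of all kept probes and 24.7% of all genes were lower. A gene counted as lower where at least 1 of its probes was called lower and none higher. Where 2-fold was required as well, 6 of the 18 probes and 2 of the 10 genes were lower, against 3.16% of all probes and 3.79% of all genes, and 0 genes were higher by 2-fold, against 9.12% of all. In the other direction 0 of the 18 probes were called, also without adjustment, since all 18 log2 fold changes were below 0, while 21.9% of all probes and 26.4% of all genes were higher. In 16 of the 18 probes the groups were separate, with all 3 JQ1-treated mice under the 2 control mice, which held for 33.6% of all kept probes. The fourth *Hyal6* probe, 1 of these 16, passed the detection filter through the control mice alone, so its place in these counts follows in part from the filter. Of the 17 other probes 15 were lower, 5 of them by 2-fold, and 15 had separate groups. The opposite separation was seen in 0 of the 18 and in 31% of all kept probes. The median log2 fold change over the 10 genes, each at its kept probe with the highest mean signal, was -0.72, with a range from -2.15 to -0.10, and the same median over all genes was 0.0031. The plots of signals by mouse and of changes by probe show these values. With 3 against 2 mice, an exact permutation test on a single probe cannot give a p below 0.1, so every call rests on the fit across all kept probes.

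**Figure D1:**
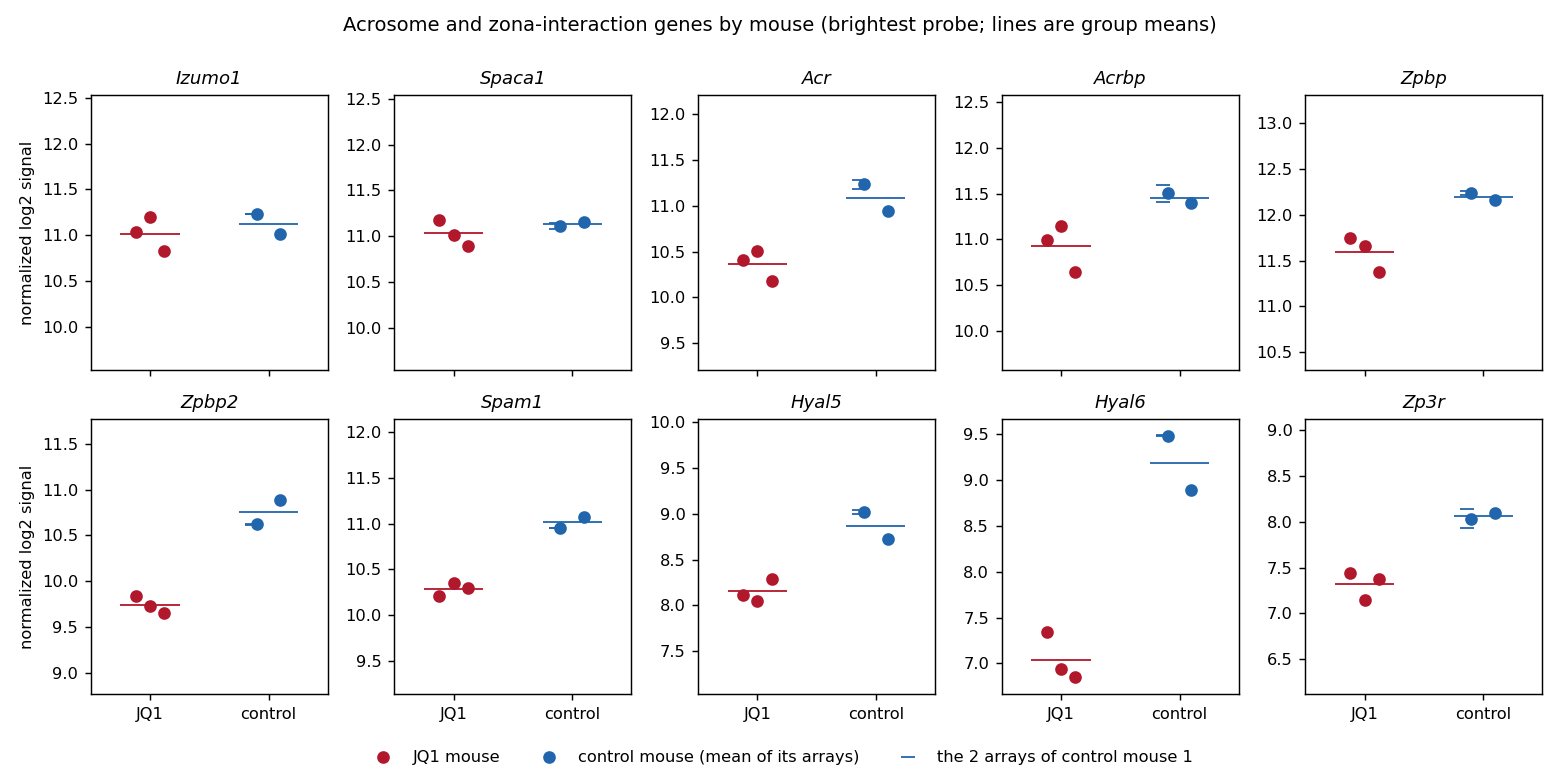
Normalized log2 signal (y axis, spanning the same range of log2 units in each panel) of the probe with the highest mean of each of the 10 genes, with JQ1-treated mice in red at left and control mice in blue at right; points are mice, long lines are group means and short blue dashes are the 2 arrays of control mouse 1. The groups are apart in 8 panels and overlap for *Izumo1* and *Spaca1*, and the gap is widest for *Hyal6*.

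**Figure D2:**
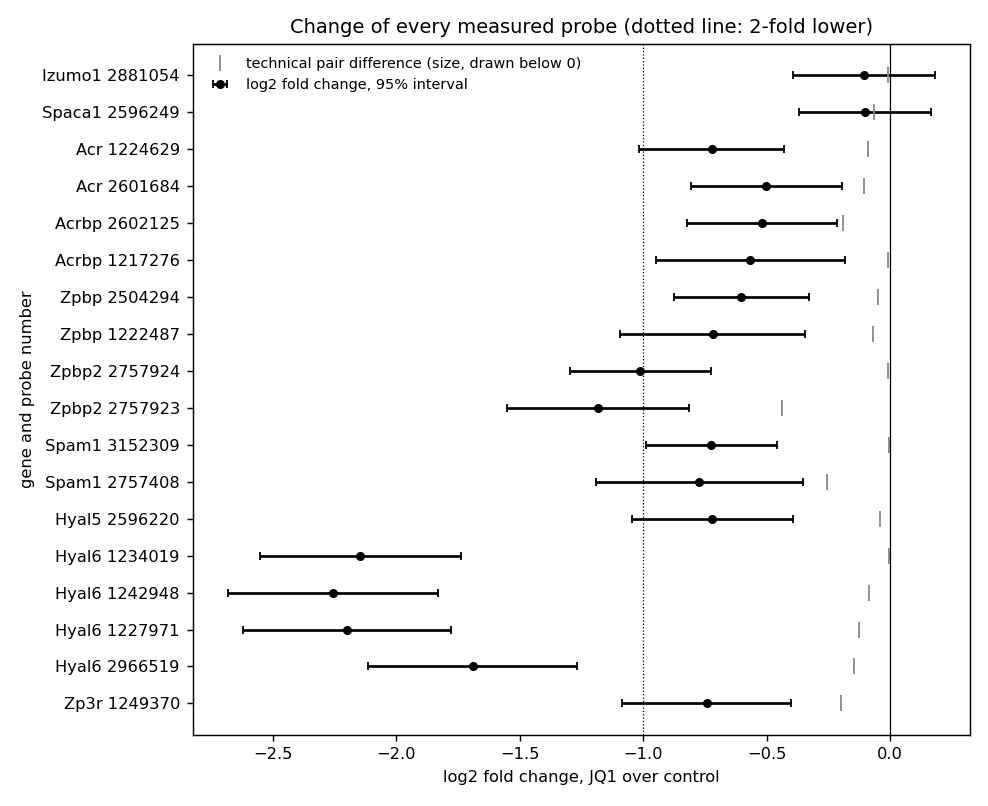
Log2 fold change, JQ1 over control (x axis), of each of the 18 kept probes, with bars for its 95% confidence interval, a dotted line at 2-fold lower, and a grey tick for the size of the difference between the 2 arrays of control mouse 1, drawn below 0. The intervals of *Izumo1* and *Spaca1* include 0, and the 4 *Hyal6* probes lie left of all others.

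Among the zona-binding proteins of the matrix, *Zpbp2* changed most. *Zpbp2* encodes a zona pellucida binding protein of the acrosomal matrix, and the mouse needs it for a normal sperm head. Its probe ILMN_2757924 had log2 signals of 9.84, 9.73 and 9.65 in JQ1-treated mice 1, 2 and 3, against 10.62 and 10.89 in control mice 1 and 2. The groups did not overlap, and the highest JQ1-treated mouse lay 0.78 below the lowest control mouse. The log2 fold change was -1.01 (SE 0.14, adjusted p = 1.63e-05), which is 2.02-fold lower with a 95% interval from 1.65- to 2.46-fold. The second probe of *Zpbp2*, ILMN_2757923, had 8.04, 7.70 and 7.46 in JQ1-treated mice and 9.03 and 8.81 in control mice, a log2 fold change of -1.18 (SE 0.18, adjusted p = 4.38e-05). Here the 2 arrays of control mouse 1 differed by 0.44, the largest such difference among the 18 probes. For ILMN_2757924 the change fell short of 2-fold in some settings. Among these, the log2 fold change was -0.94 with no background correction, -0.98 with an offset of 50 and -0.89 with cyclic loess normalization. It was -0.97 without JQ1-treated mouse 3 and -0.88 without control mouse 2.

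*Zpbp* encodes the related protein ZPBP1, which the mouse also needs for a normally shaped sperm head. At ILMN_2504294 the log2 signals were 11.75, 11.66 and 11.37 in JQ1-treated mice and 12.24 and 12.16 in control mice. The groups did not overlap, and the transcript was 1.52-fold lower (95% interval 1.26 to 1.84, adjusted p = 0.00116). Its other probe, ILMN_1222487, gave 7.01, 6.63 and 6.98 in JQ1-treated mice and 7.69 and 7.50 in control mice, a log2 fold change of -0.72 (SE 0.18, adjusted p = 0.00323). *Zp3r*, whose product is a component of the mouse acrosomal matrix that binds the zona protein ZP3, was measured at 1 probe. It had log2 signals of 7.45, 7.15 and 7.38 in JQ1-treated mice and 8.04 and 8.10 in control mice, with no overlap. It was 1.67-fold lower (95% interval 1.32 to 2.12, adjusted p = 0.00131).

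*Acr* encodes acrosin, the serine protease stored in the matrix as proacrosin, and *Acrbp* encodes the protein that binds proacrosin and holds it in the forming granule. *Acr* probe ILMN_1224629 had log2 signals of 10.41, 10.51 and 10.18 in JQ1-treated mice and 11.23 and 10.95 in control mice. The groups were apart by 0.44, and the transcript was 1.65-fold lower (95% interval 1.35 to 2.02, adjusted p = 0.000471). The second *Acr* probe, ILMN_2601684, had 8.85, 8.98 and 8.67 in JQ1-treated mice and 9.33 and 9.34 in control mice, a smaller log2 fold change of -0.50 (SE 0.15, adjusted p = 0.00919) that did not pass when either control mouse was left out (adjusted p = 0.0616 without control mouse 1 and 0.053 without control mouse 2). *Acrbp* probe ILMN_2602125 had 11.00, 11.15 and 10.64 in JQ1-treated mice and 11.50 and 11.40 in control mice. It was 1.43-fold lower (95% interval 1.16 to 1.77, adjusted p = 0.00703), the smallest change of the 8 genes that fell when each is taken at its probe with the highest mean. Its dimmer probe, ILMN_1217276, had 5.84, 5.81 and 5.77 in JQ1-treated mice and 6.43 and 6.31 in control mice, with a log2 fold change of -0.57 (SE 0.18, adjusted p = 0.0174). Both *Acrbp* probes missed the threshold without control mouse 1 (adjusted p = 0.0736 for ILMN_2602125 and 0.107 for ILMN_1217276), so that 7 in place of 8 genes were then lower.

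The hyaluronidase genes held the largest change of the 10. *Hyal6* is a hyaluronidase-like gene expressed in mouse testis. At ILMN_1234019 it had log2 signals of 7.34, 6.94 and 6.85 in JQ1-treated mice and 9.49 and 8.89 in control mice, or 7.04 ± 0.26 (SD, n = 3) and 9.19 ± 0.42 (SD, n = 2). The lowest control mouse lay 1.55 above the highest JQ1-treated mouse. *Hyal6* was 4.42-fold lower (95% interval 3.33 to 5.87, adjusted p = 3.48e-07), and the 2 arrays of control mouse 1 differed by 0.0038 at this probe. The second probe, ILMN_1242948, had 6.93, 6.44 and 6.28 in JQ1-treated mice and 9.04 and 8.57 in control mice, a 4.78-fold difference (adjusted p = 3.13e-07). The third, ILMN_1227971, had 6.75, 6.18 and 6.04 in JQ1-treated mice and 8.60 and 8.44 in control mice, a 4.59-fold difference (adjusted p = 3.64e-07). These 3 probes gave folds between 4.42 and 4.78, and with no background correction 3.07-, 2.96- and 2.71-fold in the same order. The fourth, ILMN_2966519, was detected in 0 of 3 JQ1-treated mice and in 2 of 2 control mice. It passed the detection filter through the control mice alone, so its test (adjusted p = 5.18e-06) adds no support to the other probes. Its change is given as a bound, at least 2.68-fold lower, from the control mean against the lowest signal among detected probes of each JQ1 array or the probe's own signal, whichever was higher.

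*Spam1* encodes the hyaluronidase of the sperm surface and inner acrosomal membrane, held there by a GPI anchor. At ILMN_3152309 its log2 signals were 10.21, 10.35 and 10.30 in JQ1-treated mice and 10.95 and 11.07 in control mice. All 3 JQ1-treated mice were below the control mice, and the transcript was 1.65-fold lower (95% interval 1.38 to 1.99, adjusted p = 0.000183). The dim second probe, ILMN_2757408, was detected in 2 of 3 JQ1-treated mice and both control mice, with 5.04, 5.06 and 5.22 in JQ1-treated mice and 5.72 and 6.05 in control mice. Its log2 fold change of -0.77 (SE 0.20, adjusted p = 0.00444) rests in part on background, and its adjusted p was 0.0633 without control mouse 2. *Hyal5* encodes a second GPI-anchored hyaluronidase of mouse sperm. It had 8.12, 8.05 and 8.29 in JQ1-treated mice and 9.02 and 8.72 in control mice at its 1 probe, without overlap, and was 1.65-fold lower (95% interval 1.31 to 2.07, adjusted p = 0.00117). Whether the probes of these related genes also capture one another's transcripts was not tested.

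The transcripts of *Izumo1* and *Spaca1* showed the smallest changes of the 10. *Izumo1* encodes the sperm protein that binds the egg receptor JUNO before the membranes fuse, and *Spaca1* encodes an acrosomal membrane protein that shapes the acrosome in the mouse. *Izumo1* had log2 signals of 11.03, 11.20 and 10.82 in JQ1-treated mice and 11.23 and 11.02 in control mice. The groups overlapped, since 2 of the JQ1-treated mice lay above control mouse 2, and the log2 fold change was -0.11 (SE 0.14, adjusted p = 0.551). Its 95% interval ran from -0.39 to 0.18, so a decrease of up to 1.31-fold lies within it. *Spaca1* at ILMN_2596249 had 11.18, 11.01 and 10.90 in JQ1-treated mice and 11.11 and 11.16 in control mice. JQ1-treated mouse 1 was above both control mice and the other two were below, with a log2 fold change of -0.10 (SE 0.13, adjusted p = 0.533) and an interval from -0.37 to 0.17. The near-zero values changed sign in single settings, *Izumo1* to 0.0014 without control mouse 1 and *Spaca1* to 0.0047 with cyclic loess normalization.

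**Figure D3:**
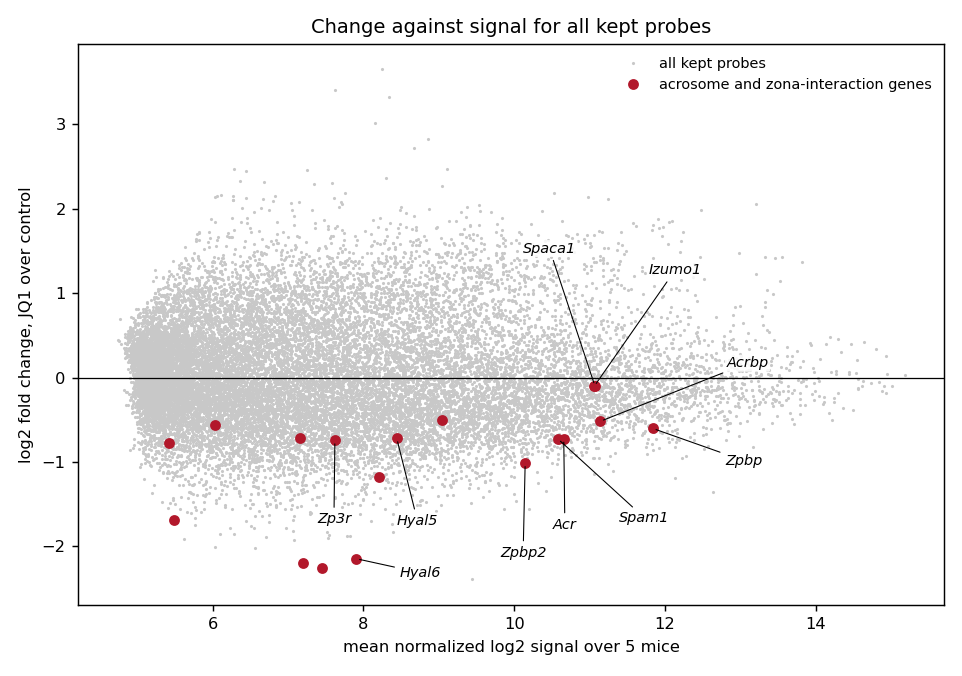
Log2 fold change, JQ1 over control (y axis), against mean normalized log2 signal over the 5 mice (x axis), for the 20554 kept probes in grey and the 18 probes of the 10 genes in red, with a name at the probe with the highest mean of each gene. All red points lie below 0, *Izumo1* and *Spaca1* at -0.11 and -0.10, and the *Hyal6* probes lie at the lower edge of the cloud.

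Changes were also compared between members within each mouse, as the difference between the log2 signals of 2 genes in the JQ1-treated mice less that in the control mice. For 7 pairs the test was an exact two-sided permutation test over mice, whose smallest p is 0.1, with adjustment over the 7. The log2 change of *Hyal6* less that of its family members was -1.42 for *Spam1* and -1.43 for *Hyal5*, and it was -2.04 for *Izumo1*, with no overlap of the 2 groups in any of these pairs (p = 0.1, adjusted p = 0.175 for each by the exact permutation test). The change of *Zpbp2* less that of *Zpbp* was -0.41, also without overlap (exact p = 0.1, adjusted p = 0.175). That of *Acr* less *Acrbp* was -0.20 (exact p = 0.2, adjusted p = 0.28). The difference was -0.0059 for *Spam1* less *Hyal5* and 0.0032 for *Spaca1* less *Izumo1* (exact p = 1 for both), with the groups overlapping in both pairs. With this exact test and 3 against 2 mice no pair could give a p under 0.05.

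The decrease was spread over the 3 treated mice. Relative to the control mean, the median over the 10 genes was -0.65 in JQ1-treated mouse 1, -0.62 in mouse 2 and -0.76 in mouse 3. It was 0.046 in control mouse 1 and -0.046 in control mouse 2, values that mirror each other by construction. Single genes ran from -0.13 to 0.30 in control mouse 1. JQ1-treated mouse 3 had the lowest signal of the treated mice in 7 of the 10 genes, mouse 2 in 2 and mouse 1 in 1. The difference between the 2 arrays of control mouse 1, which measures technical error and not the spread between mice, had a median size of 0.077 and a maximum of 0.44 over the 18 probes. Under every alternative run, 8 genes were lower except without control mouse 1, where 7 were, and the plot of changes under each alternative shows the spread for each gene.

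**Figure D4:**
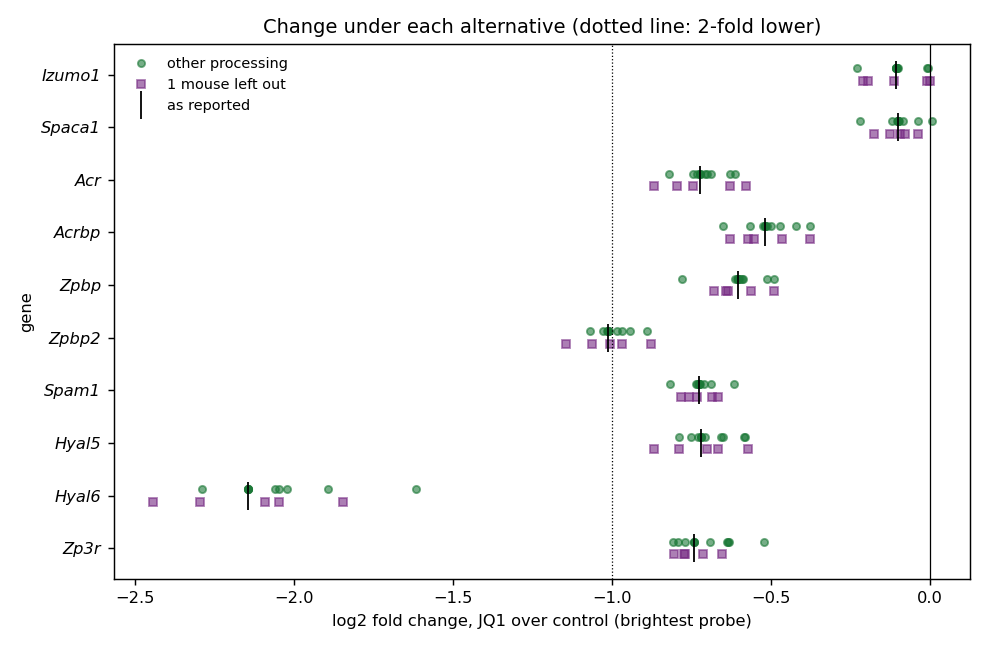
Log2 fold change, JQ1 over control (x axis), at the probe with the highest mean of each of the 10 genes as reported (black bar), under other processing (green circles) and with 1 mouse left out (purple squares), with a dotted line at 2-fold lower. *Hyal6* stays between -2.44 and -1.62, *Zpbp2* lies on both sides of the dotted line, and *Izumo1* and *Spaca1* lie around 0.

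Other genes of the acrosome and of sperm-egg interaction included both lower and higher ones. Of 106 such genes in 5 lists by role, 92 had a probe and 76 were measured. Of the 76, 30 were lower and 8 higher, read against 24.7% and 26.4% of all genes. The other 38 were counted in neither direction. Among them *Agfg1*, named after its values were seen, had probes called in opposite directions. The median log2 fold change of the 76 was -0.24, between the -0.72 of the 10 genes and the 0.0031 of all genes. With cyclic loess normalization the split was 20 lower and 14 higher, 58.8% in place of 78.9% lower among the genes counted as lower or higher. Without control mouse 1, 18 were lower and 5 higher, and without JQ1-treated mouse 3, 5 were higher. Of all genes, 3.79% were lower and 9.12% higher by 2-fold. Of the 76 measured here, 2-fold was reached by 2 of the lower genes, *Prss21* and *Spesp1*. It was also reached by 3 of the higher ones, *Cd81*, *Stx1a* and *B4galt1*, the last named after its values were seen. The count of 2 became 4 without JQ1-treated mouse 1, 1 without JQ1-treated mouse 2, 0 without JQ1-treated mouse 3 and 6 without control mouse 2.

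Among matrix proteins and enzymes, 11 of 23 measured genes were lower, against 24.7% of all genes. The median was -0.24, and 1 gene, *Gm2a*, was higher. At the probe with the highest mean 10 of the 11 passed. The exception, *Pcsk4* (-0.24, adjusted p = 0.183), was named after its values were seen and was called lower only at a dimmer probe. Without control mouse 2, 6 were lower. *Prss21*, the GPI-anchored serine protease testisin, had log2 signals of 10.94, 10.59 and 10.26 in JQ1-treated mice and 11.72 and 11.77 in control mice and was 2.22-fold lower (adjusted p = 2.27e-05). *Spesp1*, a protein of the equatorial segment of the acrosome, had 9.17, 8.81 and 8.85 in JQ1-treated mice and 9.99 and 9.92 in control mice and was 2.01-fold lower (adjusted p = 3.62e-05). *Prss40*, a testis serine protease, was 1.88-fold lower (adjusted p = 0.000133). *Gm2a*, the ganglioside activator protein of lysosomes, was 1.95-fold higher (adjusted p = 1.22e-05), and it is also expressed outside germ cells.

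Of the genes for building the acrosome and its cytoskeletal plate, the acroplaxome, 12 of 24 were lower, against 24.7% of all genes. Against 26.4% of all genes, 1 was higher, *Vps54* (log2 fold change 0.45, adjusted p = 0.0207), named after its values were seen. *Agfg1*, also named after its values were seen, was lower at its probe with the highest mean (-0.47, adjusted p = 0.00813). It counted in neither direction, because another of its probes was called higher. The median over the 24 was -0.28. At the probe with the highest mean 10 of the 12 passed, while *Spag4* (0.18, adjusted p = 0.192) and *Pick1* (0.011, adjusted p = 0.956) were called lower only at a dimmer probe (-0.60 and -0.49). *Ccdc42* was detected in 0 of 3 JQ1-treated mice and passed the filter through the control mice alone, which leaves 11 without it. These 3 genes were named after their values were seen. With cyclic loess normalization 6 were lower, without JQ1-treated mouse 2, 7, and without control mouse 1, 4. *Tmf1*, a Golgi protein whose loss in mice leaves sperm without an acrosome, had 8.74, 8.45 and 8.49 in JQ1-treated mice and 9.46 and 9.44 in control mice and was 1.85-fold lower (adjusted p = 0.000113). *Ccdc62* was 1.71-fold lower (adjusted p = 0.000938), *Gba2*, a glucosylceramidase, 1.70-fold (adjusted p = 0.00208) and *Ccdc136* 1.66-fold (adjusted p = 0.00133).

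In the fusion, exocytosis and chaperone lists the counts lay near the 24.7% lower and 26.4% higher of all genes, and nothing particular to these lists is read from them. Of 8 measured fusion genes 2 were lower, *Izumo4* (1.84-fold, adjusted p = 0.000128) and *Tmem81* (1.32-fold, adjusted p = 0.0327), and 2 were higher, *Cd9* (1.47-fold, adjusted p = 0.0439) and *Cd81*. These tetraspanins are made by many cell types and are known in fertilization from the egg. *Cd81* had 12.61, 12.74 and 13.03 in JQ1-treated mice and 11.12 and 11.50 in control mice, 2.79-fold higher (adjusted p = 5.70e-07). Without JQ1-treated mouse 2, 4 fusion genes were lower, and 1 was higher when JQ1-treated mouse 2, JQ1-treated mouse 3, control mouse 1 or control mouse 2 was left out. Of 13 exocytosis genes 3 were lower and 2 higher, with a median of -0.09. This balance depended on the processing, with 2 lower and 6 higher under cyclic loess, 4 lower and 6 higher under equal medians, and 4 lower and 4 higher with the second array of control mouse 1 alone. *Stx1a*, a syntaxin of the SNARE machinery, had 8.91, 8.90 and 9.14 in JQ1-treated mice and 7.34 and 7.27 in control mice and was 3.20-fold higher (adjusted p = 3.48e-07). *Nsf*, the ATPase that takes SNARE complexes apart, was 1.56-fold higher (adjusted p = 0.00332), while *Plcd4*, a phospholipase of the acrosome reaction, was 1.60-fold lower (adjusted p = 0.00244), *Vamp4* 1.55-fold lower (adjusted p = 0.000844) and *Stx2*, named after its values were seen, 1.39-fold lower (adjusted p = 0.0363).

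Of 9 chaperones and modifiers of sperm surface proteins 2 were lower, *Clgn* and *Ace*, and 2 were higher, *B4galt1* and *Tpst2*, with a median of -0.11. *Clgn*, the testis chaperone calmegin, passed at its second probe (log2 fold change -0.42, adjusted p = 0.0191) and not at the one with the higher mean (-0.30, adjusted p = 0.0508). *Calr3*, a testis calreticulin, had log2 fold changes of 0.058, -0.19 and -0.37 at 3 probes, none past the threshold (lowest adjusted p = 0.0598). *B4galt1*, a Golgi galactosyltransferase made in many tissues, was 2.12-fold higher (adjusted p = 3.34e-05). *Ace* (-0.30, adjusted p = 0.141) and *Tpst2* (0.31, adjusted p = 0.127) did not pass at their probes with the highest mean either and were called at others (-0.98 and -0.86 for *Ace*, 0.45 for *Tpst2*). *Ace*, *Tpst2* and *B4galt1* were named after their values were seen. With equal medians 4 genes were lower, with cyclic loess 1. Without JQ1-treated mouse 3 or control mouse 1, 1 gene was lower, and 1 was higher when JQ1-treated mouse 2, JQ1-treated mouse 3, control mouse 1 or control mouse 2 was left out.

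**Figure D5:**
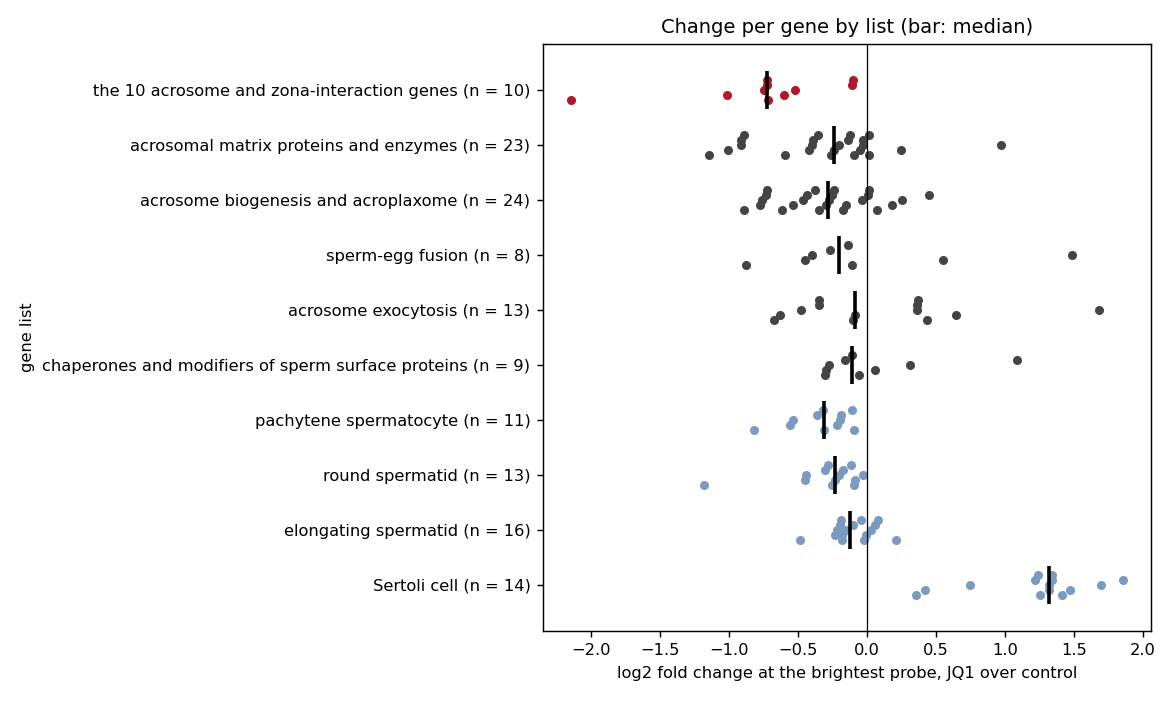
Log2 fold change, JQ1 over control (x axis), at the probe with the highest mean of each measured gene, for the 10 acrosome and zona-interaction genes (red), the other acrosome and sperm-egg lists (grey) and cell type marker lists (blue), with a black bar at each median. The medians run from -0.72 for the 10 genes to -0.09 for exocytosis among the acrosome lists, and the Sertoli cell markers have a median of 1.32.

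Markers of other cell types differed between the groups as well. The testis label was met by germ cell markers, with 13 of 14 round spermatid, 11 of 14 pachytene spermatocyte and 16 of 16 elongating spermatid genes on the array measured, and 2 of 11 epididymal ones. The shares of lower markers stand beside the 24.7% of all genes that were lower, to which those of both spermatid lists are near. Of the round spermatid markers 4 of 13 were lower, 3 of them at the probe with the highest mean, *Agbl4*, *Crem*, *Klf17* and *Papolb*, with a median log2 fold change of -0.23 and summed linear signals of 24624 to 28420 in JQ1-treated mice, against 30695 to 31234 in control mice. Pachytene markers were lower in 7 of 11, 6 of them at the probe with the highest mean (median -0.31, sums 128985 to 141124 in JQ1-treated mice and 158276 to 163244 in control mice). Elongating spermatid markers were lower in 5 of 16, *Akap4*, *Gsg1*, *Odf2*, *Ropn1* and *Spata18*, of which *Ropn1* alone passed at its probe with the highest mean (median -0.13, sums 158656 to 176388 in JQ1-treated mice and 169637 to 176244 in control mice, which overlap). The members of these counts were named after their values were seen. Sums of linear signal weight the brightest probes most. The pachytene marker *Ldhc*, also named after its values were seen, was called lower only at a dimmer probe. At its probe with the highest mean (-0.11, adjusted p = 0.418) it read 14.97 in all 3 JQ1-treated mice. In control mice 1 and 2 it read 15.14 and 15.02. The equal readings follow from quantile normalization, which gives probes of the same rank on different arrays the same value. Whether probes this bright can still register a decrease was not tested. The shares of higher markers stand beside the 26.4% of all genes that were higher. Sertoli cell markers were higher in 12 of 14, with a median of 1.32. Their sums were 55646 to 67450 in JQ1-treated mice against 23932 to 26213 in control mice. All 5 measured Leydig cell markers, 4 of 7 peritubular and stromal, 7 of 9 macrophage and 4 of 7 spermatogonial markers were higher as well, with medians of 1.15, 0.69, 0.84 and 0.44. The part of cell composition in the changes of the acrosome genes was not tested.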

How the data were processed

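The authors deposited 2 kinds of values per array and probe. Per the file headers, the first is the raw bead signal intensity on a linear scale with a detection p-value. The second is the processed intensity, which the authors describe as background-corrected and normalized, with about 30.3% of probes below 0 on each array. The scanner software and the tool behind the processed values are not given in the sources used here. Total RNA had been amplified and labelled with biotin.

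Values here start from the raw intensity. They were corrected by limma 3.58.1 in R 4.3.3 (normexp with an offset of 16 and negative controls taken from the detection p-values), then quantile normalized as log2 values, after which the technical pair of control mouse 1 was averaged. The detection filter kept probes below 0.05 in 2 or more of the 5 mice. limma's moderated test with a variance trend on signal compared JQ1 with control over all 20554 kept probes, with two-sided p-values adjusted by Benjamini-Hochberg. Calls used an adjusted p under 0.05, alone or with a 2-fold change. The same fit was tested on simulated data. The labels name separate mice. The number of mice limits the precision, and 0 per-sample columns were left unassigned.

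Gene names follow the platform annotation, in which 34885 probes have 1 symbol, 18 several and 10378 none. The 10 genes, the role lists, the marker lists and the compared pairs were chosen with earlier results of these data known. Named are all 10 genes with every probe and, of each role list, up to 4 genes with the largest change among those past the threshold at their probe with the highest mean, or the 2 with the highest means where fewer than 2 passed. Genes outside this rule are marked where they stand. Promoter sequences are those of RefSeq for GRCm38.p6 and matched 9 of the 10 genes. *Acr* had no entry. The alternatives were other background corrections, normalizations, detection filters and variance models, the authors' processed intensity floored at 1, 1 array of the technical pair, each mouse left out and a block by replicate number.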

Additional observations from a re-analysis of the deposited data

How the results depend on the processing

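Of 286 log2 fold changes, 1 for each kept probe of the 10 genes and each alternative in which it was tested, 276 kept their direction and their side of the threshold and 8 no longer passed. Those with changed processing were *Acr* ILMN_2601684 with cyclic loess (-0.36, adjusted p = 0.0506) and *Acrbp* ILMN_1217276 with equal medians (-0.43, adjusted p = 0.0951) and with no detection filter (-0.57, adjusted p = 0.0545), and the other 5 came with a control mouse left out. The signs of *Spaca1* with cyclic loess (0.0047, adjusted p = 0.979) and of *Izumo1* without control mouse 1 (0.0014, adjusted p = 0.996) reversed, and *Izumo1* ranged from -0.21 to 0.0014 with single mice left out. The cause was not tested. Of the 10 genes 7 to 8 were lower with single mice left out, where a lone control mouse was assumed to vary like the treated group, and 8 under every other alternative. Genes lower by 2-fold numbered 1 with no background correction, which left *Zpbp2* short of 2-fold. Of the other acrosome and sperm-egg genes, 30 lower in the main result, 18 to 29 were lower and 5 to 9 higher with single mice left out, and 14 were higher with cyclic loess. Their count lower by 2-fold was 1 with no background correction, 1 with an offset of 50 and 1 with cyclic loess, and 0 to 6 with single mice left out. The labels state no pairing of the mice by replicate number. Correlations of deviations were 0.15 and 0.022 for the 2 shared numbers. The deviations of the 2 control mice mirror each other, so these values cannot decide whether mice were paired. With a replicate block 8 of the 10 genes were lower, and 0 of the other genes by 2-fold. JQ1-treated mouse 3 shares its number with no control mouse, so this fit takes its log2 fold changes from the other mice alone. Their median over the 18 probes was -0.77, the same as without JQ1-treated mouse 3. Slide as a block was not run, because the tables used here give no slide. Probes near background, such as *Spam1* ILMN_2757408, limit what low signals can show.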
